A study of Mus musculus with 12 samples.

Results

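The growth hormone and IGF axis was followed here through 10 genes (Ghr, Stat5a, Stat5b, Socs2, Igf1, Igfals, Igfbp1, Igfbp2, Igfbp4 and Igfbp5), chosen by symbol from the 16728 genes listed for mouse primary hepatocytes. The cells came from Fxr-/- (KO) or wild-type (WT) livers, all labelled with the strain C57BL/6. Fxr, encoded by Nr1h4, is a nuclear receptor for bile acids. Cells in DMEM with 10% FBS received FAC or AC, each at 100 µM for 24 h. The series title names iron overload as the question, and neither FAC nor AC is spelled out in the labels. There were 3 libraries in each of 4 groups, KO FAC, KO AC, WT FAC and WT AC, numbered 4 to 6 under FAC and 1 to 3 under AC. Whether 3 libraries of 1 group stand for 3 animals, 3 cultures or 1 of either is not in the labels, and p-values measure only the spread between these samples. Nor do the labels name the knockout allele or count the livers behind each genotype, so genotype and cell preparation cannot be told apart.

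In the liver, growth hormone binds its receptor (Ghr), the kinase Jak2 is activated, and Stat5 proteins enter the nucleus and switch on Igf1, Igfals and Socs2. IGF-1 leaves the liver bound to IGF binding proteins, and the acid-labile subunit encoded by Igfals keeps it in the circulation, while Socs2 damps signalling from the receptor. Igfbp1 belongs to another branch: insulin represses it through FoxO factors, and cell stress induces it.

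Both kinds of control can be looked for as letters in front of the genes. RefSeq promoter windows (GRCm38.p6, 250 bases before the start) were at hand for 9 of the 10 genes, in 15 windows, and were searched on both strands. Socs2 had no window and was not searched. Searched were TTCNNNGAA, the palindromic core of STAT sites, and CAAAANAA, the core of insulin response sequences. The 2 motifs overlapped in no member's window. Of these 9 genes, Igfbp1 and Igfals alone held a match, in 3 windows, which are printed 5′ to 3′ with the matches in capitals. Each runs up to the first base that GENCODE M21 annotates as an exon. Igfals had 3 windows, since RefSeq lists 3 starts, and those with a match are the windows numbered 1 and 2.
Igfbp1, chr11:7197537-7197781, plus strand: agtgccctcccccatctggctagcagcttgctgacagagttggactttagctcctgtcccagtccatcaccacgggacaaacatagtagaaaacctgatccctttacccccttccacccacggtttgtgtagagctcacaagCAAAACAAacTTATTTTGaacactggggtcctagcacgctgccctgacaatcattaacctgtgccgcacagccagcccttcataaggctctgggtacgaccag
Igfals, chr17:24877594-24877655, plus strand: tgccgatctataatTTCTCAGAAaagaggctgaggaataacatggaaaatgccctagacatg
Igfals, chr17:24877981-24878214, plus strand: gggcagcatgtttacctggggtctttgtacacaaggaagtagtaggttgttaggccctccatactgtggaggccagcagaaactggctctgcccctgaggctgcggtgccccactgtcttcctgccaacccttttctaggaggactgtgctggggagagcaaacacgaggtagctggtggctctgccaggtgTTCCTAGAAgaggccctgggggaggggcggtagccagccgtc
The Igfbp1 matches lie at −108 to −101 and, on the opposite strand, −98 to −91 from the RefSeq start. CAAAANAA occurred in 7.16% of all 32851 windows of this length, and at least 2 copies in 0.636%. The Igfals matches lie at −236 to −228 and at −58 to −50 from their starts, and TTCNNNGAA occurred in 7.02% of windows. A match describes letters only, and no binding was measured.

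Libraries held 16464494 to 18335700 estimated reads. Levels are given in CPM, estimated reads per 1000000 of a library scaled by the TMM method, and not divided by gene length. FPKM values, which are, serve where genes are compared with each other. Tests are edgeR quasi-likelihood tests on 12275 genes that passed a filter on low counts, with Benjamini-Hochberg adjustment over all of them, and a gene passed at an adjusted p under 0.05. All 10 members passed the filter, Igfbp5 through its KO libraries. A gene that reaches the filter's level in 1 genotype alone has its direction between genotypes set by the filter. KO against WT is therefore counted over the 11525 genes at that level in both genotypes, and Igfbp5 is described there without a test. Nr1h4 had 3.54, 4.45 and 4.89 CPM in KO FAC, 9.35, 6.97 and 7.45 in KO AC, 7.00, 6.95 and 7.69 in WT FAC and 13, 15.6 and 13.1 in WT AC. These counts cover the whole gene and are no test of the deletion. Hepatocyte markers were abundant throughout: 6 genes led by Alb summed to 25900 to 26600 CPM in KO FAC, 20200 to 21900 in KO AC, 29100 to 30700 in WT FAC and 21000 to 22100 in WT AC. Nearly all of that sum was Alb, which was lower in KO under both treatments, while Ttr, Apoa1, Asgr1 and Cps1 were higher in KO under both and Hnf4a did not pass. Asgr1, a hepatocyte surface receptor gene, averaged 171 CPM in KO FAC, 96.1 in KO AC, 36.2 in WT FAC and 25 in WT AC. Cps1, of the urea cycle, averaged 24.9, 15.7, 3.5 and 5 CPM in the same order of groups. With FAC, 5 of the 6 were higher in KO, and 4 were higher and 1 lower in WT. The part of this shift in the members' values was not tested. The balance of higher and lower genes depended on the scaling. Of the genes that passed, 50.6% were higher with FAC in KO and 50.4% in WT, 59.4% in the difference, and 50.7% and 49.7% in KO against WT under AC and FAC. On log2(TPM + 1) with limma these shares were 17%, 22.3%, 41.6%, 31.7% and 26.8%, with medians over all genes of −0.17, −0.11, −0.07, −0.12 and −0.19. On log2(FPKM + 1) the shares were 32%, 41.2%, 45.3%, 37.7% and 32.9%.

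With FAC, Stat5a, Stat5b and Socs2 fell and Igfbp2 rose in both genotypes. In KO cells 6 of the 10 genes passed, where 29.6% of all tested genes did. Igfals, Igfbp2 and Igfbp4 were higher (15% of all tested genes were) and Stat5a, Stat5b and Socs2 lower (14.6%). In WT cells 4 passed against 17.2% of all, with Igfbp2 higher (8.7%) and Stat5a, Stat5b and Socs2 lower (8.55%). Among the 10, the difference of FAC effects between genotypes passed for Igfbp4 alone, a call lost in 9 of 18 alternatives. Over all genes 3.15% passed (1.87% with a higher and 1.28% with a lower effect in KO). Between genotypes, where Igfbp5 was not tested, 4 of the other 9 genes passed under each treatment. Under FAC, Ghr, Stat5a and Igf1 were higher in KO (23.9% of genes were) and Socs2 lower (25%), where 48.8% passed in all. Under AC the same 3 genes were higher (21.3%) and Igfbp4 lower (21%), where 42.3% passed in all, so the number between genotypes is close to that background. The members' median log2 fold change was 0.48 for FAC in KO and −0.20 in WT, and 0.20 and 0.18 for KO against WT under FAC and AC (9 genes), beside −0.01 to 0.00 over all genes. FAC libraries stood clear of AC libraries for 6 of the 10 genes in KO, where 38.8% of all genes did, and for 6 in WT, where 43.2% did. Those of KO and WT did not overlap for 4 of 9 under FAC (58.9% of genes) and 5 under AC (52.3%).

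**Figure D1:**
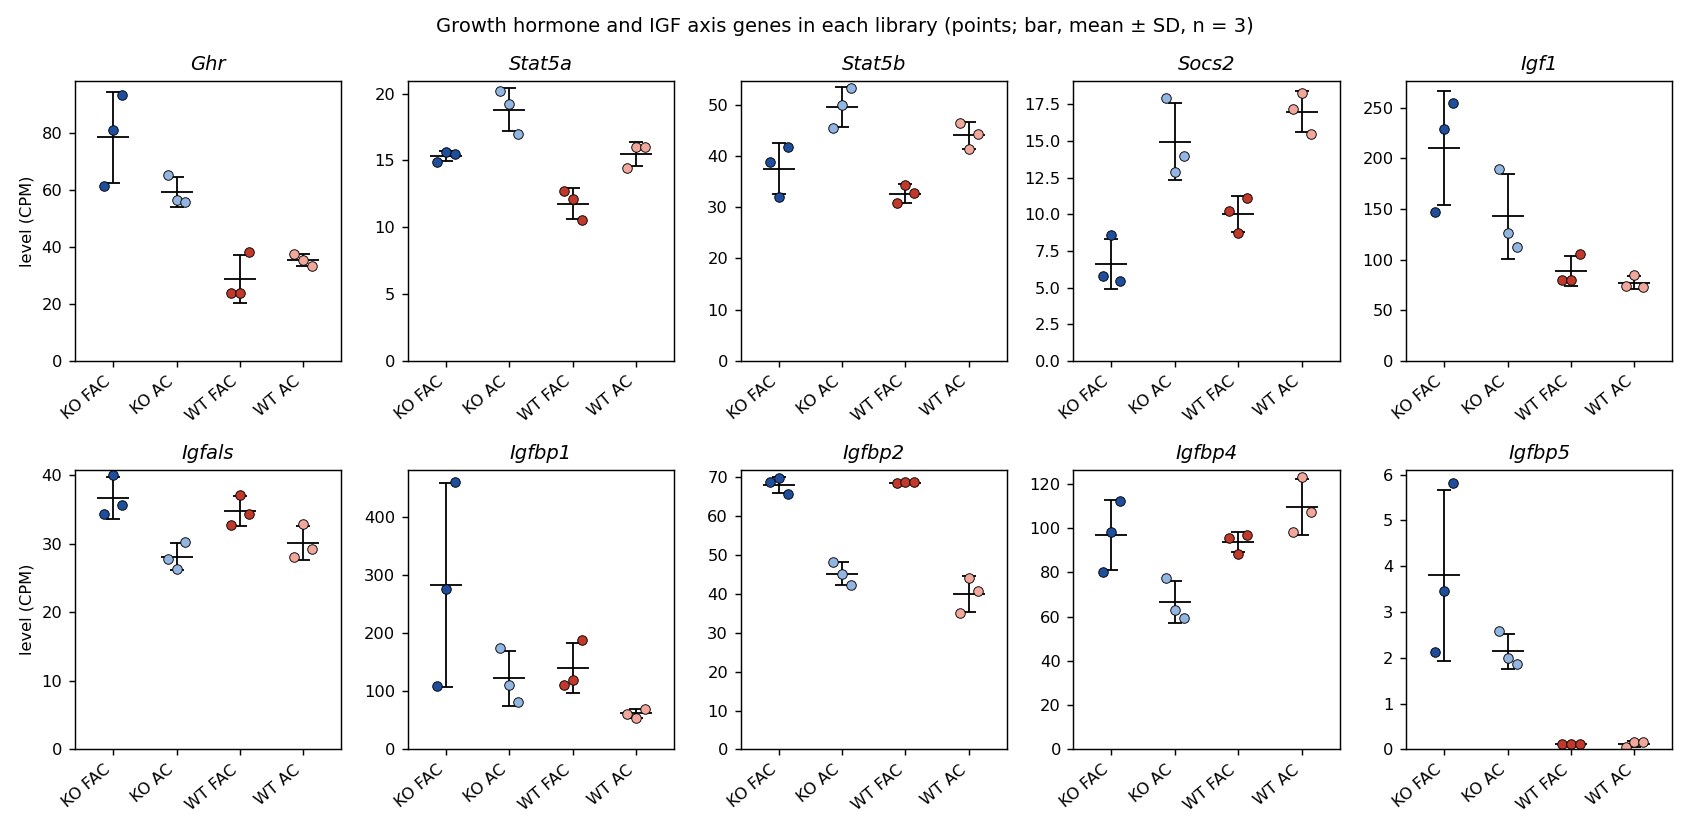
Level of each of the 10 genes (vertical axis, CPM, from 0) in the KO FAC, KO AC, WT FAC and WT AC libraries; points are libraries and bars the mean ± SD of 3. Socs2, Stat5a and Stat5b are lower under FAC than under AC in both genotypes, Igfbp2 is higher, and Igfbp5 lies near 0 in WT.

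Mean levels per length put Igfbp1, Igfbp2 and Igfbp4 on top and Igfbp5 last in every group. In KO FAC, Igfbp1 led with a mean of 192 FPKM, before Igfbp2 (59.5), Igfbp4 (46.9), Ghr (42.1), Igf1 (28.6), Igfals (17.2), Stat5b (7.32), Stat5a (3.89), Socs2 (2.86) and Igfbp5 (0.623). Igfbp4 and Ghr were the neighbours in that order whose libraries overlapped. In KO AC the order ran Igfbp1 (87.5 FPKM), Igfbp2 (40.3), Igfbp4 (34.1), Ghr (31.1), Igf1 (20.6), Igfals (14), Stat5b (10.2), Socs2 (7.02), Stat5a (5.00) and Igfbp5 (0.373), with overlaps from Igfbp2 to Igfbp4 and from Igfbp4 to Ghr. In WT FAC it was Igfbp1 (104 FPKM), Igfbp2 (62.9), Igfbp4 (49.4), Igfals (17.9), Ghr (13.9), Igf1 (13.1), Stat5b (6.95), Socs2 (4.82), Stat5a (3.32) and Igfbp5 (0.02), where Ghr and Igf1 overlapped. In WT AC, Igfbp4 (59.6 FPKM) came before Igfbp1 (47.4), Igfbp2 (38.3), Igfals (16), Ghr (15.1), Igf1 (11.7), Stat5b (9.65), Socs2 (8.35), Stat5a (4.45) and Igfbp5 (0.0233). There Igfbp1 overlapped with Igfbp2, and Igfals with Ghr. Ghr and Igf1 thus stood above Igfals in KO and below it in WT, under both treatments. Among Socs2 and Stat5a, the weaker of the 2 was Socs2 in KO FAC and Stat5a in the other 3 groups.

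The receptor gene Ghr (gene identifier 14600, chromosome 15, 3317755 to 3583352) was higher in KO than in WT under both treatments. It had 61.5, 81.0 and 93.2 CPM in KO FAC against 23.8, 23.9 and 38.3 in WT FAC, a 2.74-fold difference (log2 fold change 1.46 ± 0.18 (SE), adjusted p = 4.84e-05). Under AC it had 65.2, 56.5 and 55.7 CPM in KO against 37.6, 35.3 and 33.4 in WT, a 1.67-fold difference (0.74 ± 0.18, adjusted p = 0.00639). Every KO library lay above every WT library of its treatment, and the call held in all 14 alternatives of either comparison. FAC against AC gave 0.41 ± 0.18 in KO (adjusted p = 0.102) and −0.31 ± 0.19 in WT (adjusted p = 0.287), with overlapping libraries in each. The difference of these effects was 0.72 ± 0.26 (adjusted p = 0.152). WT FAC 6 decides the WT value: without it Ghr was lower with FAC in WT (−0.57, adjusted p = 0.0281), and the difference passed (0.98, adjusted p = 0.0368). In KO, FAC passed without KO FAC 4 (0.57, adjusted p = 0.0254) and with limma on FPKM.

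Ghr also changed in the length behind its reads. A deposited count and the FPKM made from it imply an effective transcript length, the mean that RSEM gave the gene in that library after weighing its transcripts. For Ghr it was 1599, 1739 and 1860 bases in KO FAC and 1884, 1845 and 1928 in KO AC. It was 1912, 1995 and 2336 bases in WT FAC and 2510, 2382 and 2524 in WT AC. The 6 KO libraries ran from 1599 to 1928 bases and the 6 WT libraries from 1912 to 2524, so that KO AC 3 and WT FAC 4 overlap. The KO mean was 0.795 of the WT mean (exact permutation test over 6 and 6 libraries, 2-sided p = 0.00433, adjusted over the 10 genes 0.0144; the smallest p it can give is 0.00216). This measure was chosen after the values were seen, and it was computed for all 10 genes. The test does not set Ghr apart from them: Igf1 (ratio 0.996) and Igfals (1.01) had the same adjusted p of 0.0144 by this exact test, and Stat5a (1.02) had 0.0325. It is the size that differs, since in the other 9 the ratio lay between 0.986 and 1.02. Of 9592 genes with at least 1 FPKM in every library 12 (0.125%) had a ratio at or below that of Ghr. Within WT the 3 FAC libraries lay below the 3 AC libraries, while in KO they overlapped. GENCODE M21 lists coding Ghr transcripts of 4175 and 2749 bases with 11 exons (Ghr-201 and Ghr-208), and of 1213 and 1171 bases with 9 exons (Ghr-202 and Ghr-203). In the mouse, short Ghr messages encode the soluble growth hormone binding protein and long ones the membrane receptor. Levels of single transcripts were not analysed here. Because FPKM divides by this length, the genotypes lie further apart on that scale, at 42.1 ± 6.3 FPKM in KO FAC against 13.9 ± 2.5 in WT FAC, and 31.1 ± 2.7 in KO AC against 15.1 ± 1.1 in WT AC (SD, n = 3 each).

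**Figure D2:**
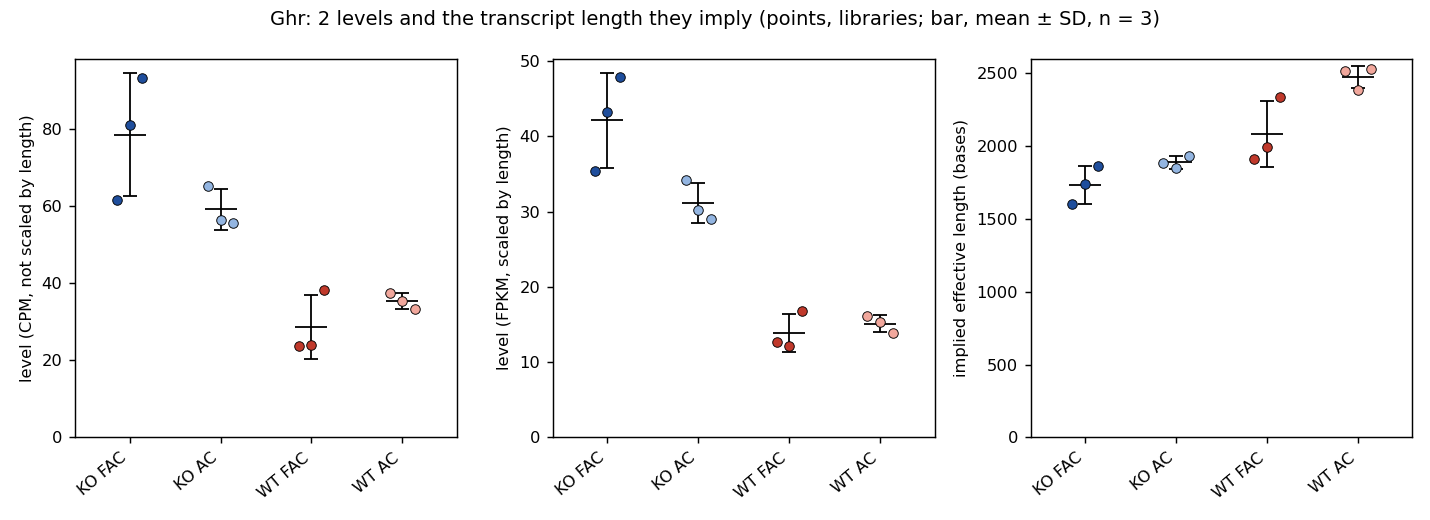
Ghr in each library as CPM (left), as FPKM (middle) and as the effective transcript length in bases that the 2 imply (right), with the mean ± SD of 3. KO libraries lie higher in level, and at 1599 to 1928 bases against 1912 to 2524 in WT.

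The Stat5 genes, which encode the transcription factors activated downstream of the receptor, lie side by side on chromosome 11 (Stat5a, 100859351 to 100885169; Stat5b, 100780731 to 100859004). Their sequences are alike and RSEM splits shared reads, so each was read with the other. Stat5b had 38.9, 32 and 41.7 CPM in KO FAC against 45.4, 49.9 and 53.3 in KO AC (−0.40 ± 0.10, adjusted p = 0.00947). In WT it had 30.8, 34.4 and 32.8 CPM with FAC against 46.5, 41.3 and 44.2 with AC (−0.43 ± 0.10, adjusted p = 0.0106). All FAC libraries lay below all AC libraries of their genotype, and the WT call was lost without WT FAC 4 (adjusted p = 0.0517). Stat5a had 14.9, 15.6 and 15.5 CPM in KO FAC, 20.2, 19.2 and 17 in KO AC, 12.7, 12.1 and 10.5 in WT FAC and 14.4, 16 and 16 in WT AC. It fell with FAC in KO (−0.29 ± 0.10, adjusted p = 0.0411) and in WT (−0.39 ± 0.10, adjusted p = 0.0174), again without overlap. It was higher in KO than in WT under FAC (0.38 ± 0.10, adjusted p = 0.00725) and AC (0.28 ± 0.10, adjusted p = 0.0354). These Stat5a calls were frail: the FAC call in KO was lost in 8 of 13 alternatives, that in WT in 3 of 13, and the genotype call in 3 of 14 under FAC and 11 of 14 under AC. With the reads of both genes summed, FAC lowered the total by 0.37 ± 0.07 in KO (adjusted p = 0.00276) and by 0.42 ± 0.08 in WT (adjusted p = 0.00208). The summed level was higher in KO by 0.25 ± 0.08 under FAC (adjusted p = 0.0139) and 0.20 ± 0.07 under AC (adjusted p = 0.044). Stat5b alone did not pass between genotypes, at 0.20 ± 0.10 under FAC and 0.17 ± 0.10 under AC (adjusted p = 0.114 and 0.181).

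Socs2, the feedback inhibitor and a target gene of Stat5 (chromosome 10, 95383903 to 95417321), fell most with FAC among the 10. It had 5.79, 8.57 and 5.41 CPM in KO FAC against 17.9, 12.9 and 14 in KO AC, 2.27-fold lower (−1.18 ± 0.18, adjusted p = 0.00037). In WT it had 10.2, 8.71 and 11.1 CPM with FAC against 17.2, 18.3 and 15.5 with AC, 1.70-fold lower (−0.76 ± 0.17, adjusted p = 0.00683). No FAC library reached the lowest AC library of its genotype, and both calls held in all 13 alternatives. The effect in KO minus that in WT was −0.42 ± 0.24 (adjusted p = 0.369). Under FAC, KO lay below WT (−0.61 ± 0.18, adjusted p = 0.0123), a call lost without KO FAC 6 (−0.48, adjusted p = 0.0522). Under AC the difference was −0.19 ± 0.16 (adjusted p = 0.367), with overlapping libraries. The summed reads behind these levels were 319 in KO FAC, 785 in KO AC, 534 in WT FAC and 937 in WT AC.

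Igf1, which encodes the circulating growth factor (chromosome 10, 87858265 to 87937047), was higher in KO. It had 147, 229 and 255 CPM in KO FAC against 80.3, 79.5 and 106 in WT FAC, 2.37-fold (1.25 ± 0.24, adjusted p = 0.00146). Under AC it had 190, 126 and 112 CPM in KO against 73.5, 84.5 and 73.0 in WT, 1.86-fold (0.89 ± 0.24, adjusted p = 0.0119). No WT library reached a KO library of its treatment, and both calls held in all 14 alternatives. FAC against AC gave 0.56 ± 0.23 in KO (adjusted p = 0.0968) and 0.20 ± 0.24 in WT (adjusted p = 0.609), with overlapping libraries. The KO value passed with DESeq2, and without KO FAC 4 or KO AC 1 (adjusted p = 0.0198 to 0.0305 over these 3).

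Igf1 lies 1.52 Mb from Nr1h4, the gene that the knockout disrupts. The 19 genes within 2 Mb of Nr1h4 at the filter's level in both genotypes include Igf1 itself and leave out Nr1h4. Of the 19, 7 were higher, Igf1 included, and 4 lower in KO under FAC, and likewise under AC. This was 57.9% in each, beside 48.8% and 42.3% over all. The median size of their log2 fold changes was 0.369 under FAC and 0.404 under AC, against 0.308 and 0.262 over all genes. The part of this neighbourhood in the Igf1 values was not tested. Socs2, 5.85 Mb away, lies outside that window.

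Igfals, whose product holds IGF-1 in the circulating complex (chromosome 17, 24877844 to 24882011), rose with FAC in KO. It had 34.3, 40.1 and 35.7 CPM in KO FAC against 27.8, 26.3 and 30.2 in KO AC (0.39 ± 0.09, adjusted p = 0.00746), with no overlap. The call was lost on log2(TPM + 1) (0.18, adjusted p = 0.126), where the median of all genes was −0.17. In WT it had 32.8, 37.1 and 34.4 CPM with FAC against 28.1, 32.9 and 29.3 with AC (0.21 ± 0.09, adjusted p = 0.14). KO against WT was 0.08 ± 0.09 under FAC and −0.10 ± 0.09 under AC (adjusted p = 0.501 and 0.406).

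Igfbp1, the stress- and insulin-regulated binding protein (chromosome 11, 7197787 to 7202546), varied several-fold between libraries of KO FAC. Its levels were 110, 276 and 461 CPM in KO FAC, 174, 111 and 81.9 in KO AC, 111, 120 and 189 in WT FAC and 61.9, 55.0 and 69.3 in WT AC. The fold was 2.31 with FAC in KO (1.21 ± 0.49, adjusted p = 0.0964), where libraries overlapped, and 2.26 in WT (1.18 ± 0.49, adjusted p = 0.144), where they did not. KO against WT was 1.01 ± 0.49 under FAC (adjusted p = 0.116) and 0.98 ± 0.49 under AC (adjusted p = 0.143). None of these passed here. The WT value passed in a fit of the WT libraries alone (adjusted p = 0.02), and the KO value with DESeq2 (0.0406) and without KO FAC 4 (1.60, adjusted p = 0.0148), but without KO FAC 6 it was 0.66 (adjusted p = 0.28). KO against WT under FAC ran from 0.46 without KO FAC 6 (adjusted p = 0.393) to 1.41 without KO FAC 4 (adjusted p = 0.0149). Under AC it passed in a fit of those groups alone (adjusted p = 0.0105), and was 0.63 without KO AC 1 (adjusted p = 0.384).

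Igfbp2, a binding protein secreted by the liver (chromosome 1, 72824480 to 72852474), gave the steadiest rise. It had 68.8, 69.8 and 65.8 CPM in KO FAC against 48.2, 45.1 and 42.4 in KO AC, 1.51-fold (0.59 ± 0.08, adjusted p = 0.000241). In WT it had 68.6, 68.7 and 68.7 CPM with FAC against 35.0, 44.2 and 40.7 with AC, 1.72-fold (0.78 ± 0.08, adjusted p = 4.55e-05). No libraries overlapped, both calls held in all 13 alternatives, and the difference of effects was −0.19 ± 0.12 (adjusted p = 0.408). The FAC libraries reached nearly the same level in both genotypes (−0.01 ± 0.08 for KO against WT, adjusted p = 0.928). Under AC the genotypes differed by 0.18 ± 0.08 (adjusted p = 0.102).

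Igfbp4, which binds IGFs and limits their access to the receptor (chromosome 11, 99040005 to 99052655), was the gene of the 10 whose FAC effect passed the test of a difference between genotypes. It had 80.3, 98.4 and 112 CPM in KO FAC against 77.4, 62.9 and 59.3 in KO AC, 1.46-fold higher (0.54 ± 0.13, adjusted p = 0.00667). In WT it had 95.4, 88.4 and 96.8 CPM with FAC against 98.2, 123 and 107 with AC (−0.22 ± 0.12, adjusted p = 0.241). FAC libraries lay above the AC libraries in KO and below them in WT, without overlap in either. The difference of the effects was 0.77 ± 0.18 (adjusted p = 0.0372). Effects of opposite sign were also fitted for Ghr and Igfbp5, with differences of 0.72 ± 0.26 and 1.0 ± 0.96 that did not pass, and no test set Igfbp4 against them. That call was lost without KO FAC 5, KO FAC 6, KO AC 2, KO AC 3, WT FAC 4, WT FAC 5, WT FAC 6, WT AC 2 or WT AC 3. Over all alternatives its adjusted p ran from 0.00376 to 0.0966. Under AC, Igfbp4 was 1.64-fold lower in KO (−0.72 ± 0.13, adjusted p = 0.000615), which held in all 14 alternatives. Under FAC the genotypes differed by 0.05 ± 0.12 (adjusted p = 0.76).

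Igfbp5, a binding protein of the extracellular matrix that neighbours Igfbp2 on chromosome 1 (72858065 to 72874865), was read almost only in KO. The estimated reads were 35, 53 and 100 in KO FAC and 45, 36 and 32 in KO AC, against 2 in each WT FAC library and 1, 3 and 3 in WT AC. In CPM this was 2.13, 3.47 and 5.82 in KO FAC against 0.113, 0.110 and 0.115 in WT FAC. Under AC it was 2.58, 1.99 and 1.86 CPM in KO against 0.0545, 0.162 and 0.164 in WT. The WT levels rest on 6 reads under FAC and 7 under AC in all. No test is given between genotypes, since the KO libraries alone carried the gene through the filter. FAC against AC gave 0.83 ± 0.31 in KO (adjusted p = 0.0573) and −0.17 ± 0.87 in WT (adjusted p = 0.922). The KO value turns on single libraries: it passed without KO FAC 4 (1.13, adjusted p = 0.00586) and without KO AC 1 (0.98, adjusted p = 0.0461), and was 0.38 without KO FAC 6 (adjusted p = 0.336). Igfbp5 is made by stellate cells and fibroblasts among others, and in bulk RNA a change in the share of a cell type and one in RNA per cell cannot be told apart. Of 7 stellate and fibroblast markers 6 were listed, and they summed to 4.51 to 6.70 CPM in KO FAC, 6.08 to 6.75 in KO AC, 10.5 to 11.3 in WT FAC and 12.9 to 15.8 in WT AC. Most of the sum in KO was Reln, which averaged 5.4 CPM in KO FAC, 6.16 in KO AC, 6.99 in WT FAC and 7.99 in WT AC. Col1a1 had 6 and 8 reads in all in KO FAC and KO AC, against 80 in WT FAC and 93 in WT AC. Dcn had 11 and 6 reads in KO FAC and KO AC, against 86 in WT FAC and 137 in WT AC. The part of such cells in the Igfbp5 values was not tested.

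**Figure D3:**
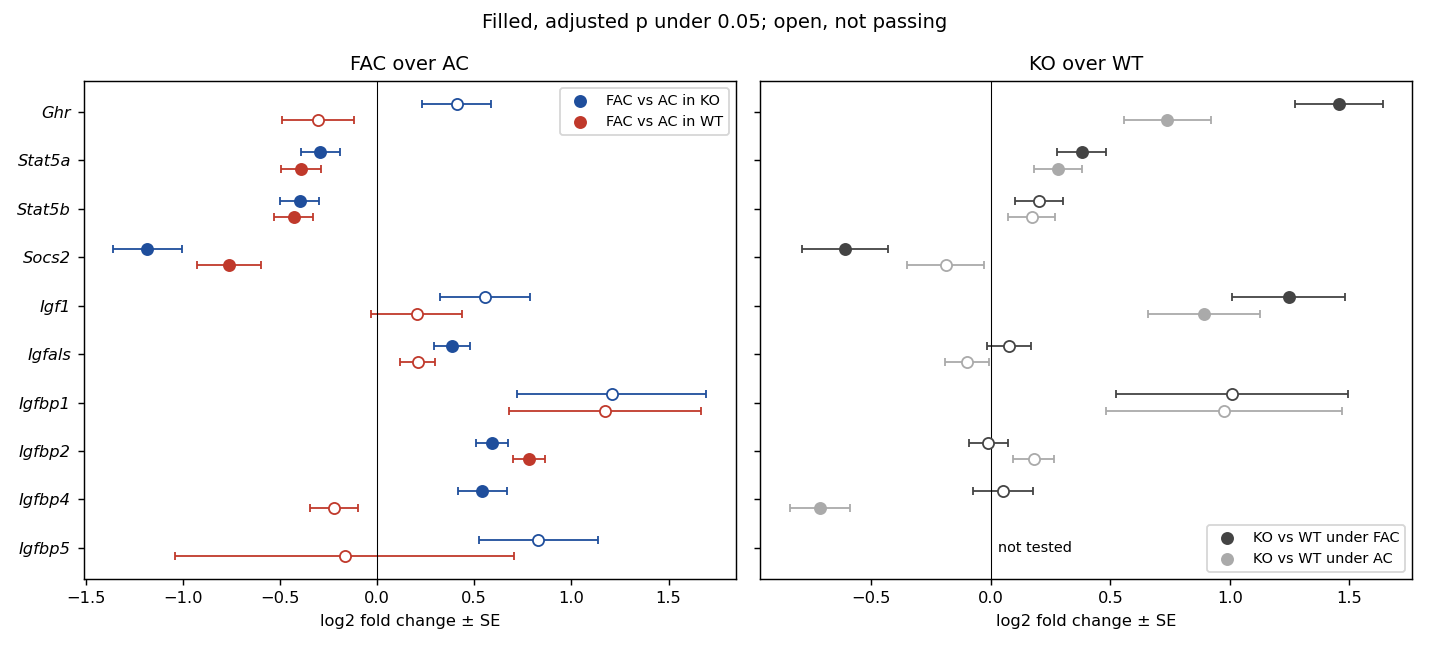
Log2 fold change ± SE (horizontal axis) of each gene for FAC over AC (left; KO and WT) and for KO over WT (right; under FAC and AC). Filled points passed at an adjusted p under 0.05; Igfbp4 lies on opposite sides of 0 in KO (0.54) and WT (−0.22) on the left. Igfbp5 was not tested between genotypes.

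Markers of other cells moved as well. For 4 bile duct markers the sum was 65.5 to 80.3 CPM in KO FAC, 37.7 to 54.3 in KO AC, 30.0 to 37.0 in WT FAC and 30.5 to 37.7 in WT AC, with Krt7 at 0 reads in KO FAC. For 6 endothelial markers it was 17.9 to 23.3, 17.1 to 19.3, 15.4 to 21.9 and 11 to 14.7 CPM in the same order of groups, and Clec4g was at 0 reads except for 2 in WT AC. These genes did not move together: Stab2 averaged 17.7, 15.2, 6.73 and 6.02 CPM, and Pecam1 1.37, 1.51, 7.46 and 4.36. For 6 macrophage markers it was 728 to 863, 556 to 688, 654 to 702 and 350 to 424 CPM, nearly all of it Cd68. Adgre1 went the other way, at 0.1, 0.323, 0.714 and 2.24 CPM, as did Marco, at 0.0795, 0.32, 0.676 and 2.22 CPM. The Kupffer cell gene Clec4f had 0, 0, 1 and 3 reads. The part of these markers in the members' values was not tested.

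The KO libraries were not alike within their groups. On the third principal component of all genes, which held 7.42% of the variance, KO FAC 4, 5 and 6 lay at 22.7, −3.26 and −27.7 and KO AC 1, 2 and 3 at −13.5, 14.6 and 9.63. Igfbp1, Igf1, Igfbp5, Igfbp4 and Ghr followed the same order in KO FAC, lowest in library 4 and highest in library 6. They are named for that order, and the share of all genes with it is not given. All 5 were highest in library 1 of KO AC, but so were Stat5a, Socs2 and Igfbp2. In KO AC the 5 were lowest in library 3, while component 3 was highest in library 2. Igfbp1 deviated from its KO FAC mean by −1.13, 0.20 and 0.94 on the log2 scale, and from its KO AC mean by 0.58, −0.07 and −0.51. Igf1 deviated by −0.48, 0.17 and 0.32 in KO FAC and by 0.45, −0.14 and −0.31 in KO AC. Igfbp2 deviated by no more than 0.10 in any KO library, and Socs2 was highest in KO FAC 5. Without KO FAC 4, 9 of the 10 genes passed for FAC in KO, where 29.7% of 12421 genes did in that fit. They were 7 higher (15.3% of genes) and 2 lower (14.4%), Ghr, Igf1, Igfbp1 and Igfbp5 being added and Stat5a lost. Leaving out KO FAC 5, KO FAC 6, KO AC 1, KO AC 2 or KO AC 3 instead gave 5, 5, 7, 5 and 6 genes. The shares of all genes in those fits were 20.8%, 25%, 33%, 22.8% and 19.1%. What sets these libraries apart was not tested.

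**Figure D4:**
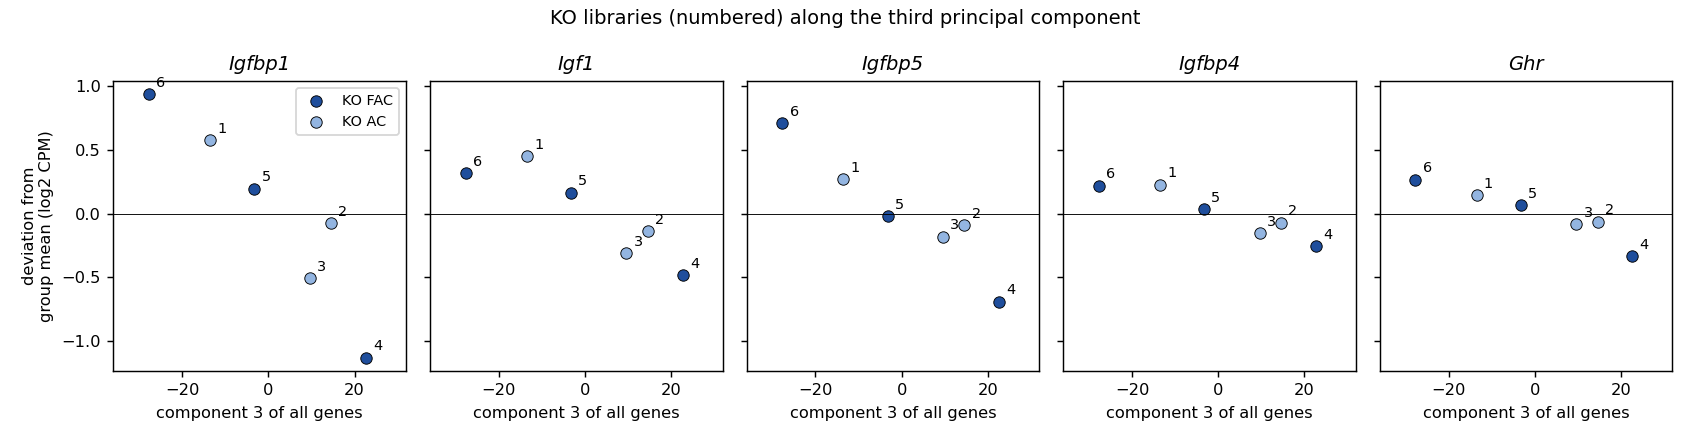
Deviation of 5 genes from their group mean (vertical axis, log2 CPM) in the 6 KO libraries, numbered, against the third principal component of all genes (horizontal axis). In KO FAC the genes run from library 6, highest, to library 4, lowest, the order for which they were picked.

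Genes with patterns most like Igf1 over the 12 libraries, by Pearson correlation of log2 CPM among 7623 genes with a mean of at least 5 FPKM, were Ndfip1 (r = 0.99), Serpina10 (0.984) and Flot1 (0.98). For Igfbp1 they were Snrnp25 (0.984), Arl6ip1 (0.941) and Fam174a (0.936). Serpina10 averaged 68.9 CPM in KO FAC, 52.0 in KO AC, 28.6 in WT FAC and 26.8 in WT AC. These are descriptions over libraries that share groups and genotype.

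The rest of the pathway was followed through 22 other genes of growth hormone and IGF signalling, of which 19 were tested and Igf1r, Igf2 and Igfbp6 were too low. FAC in KO raised 3 and lowered 5 (15% and 14.6% of all genes), and in WT raised 2 and lowered 2 (8.7% and 8.55%), with medians of 0.02 and −0.17. Jak2, the kinase at the receptor, fell with FAC in both, averaging 25.9 CPM in KO FAC against 35.8 in KO AC, and 40.7 in WT FAC against 49.8 in WT AC (adjusted p = 0.00129 and 0.0245). It was chosen here for its role after its values were seen. Insr, the insulin receptor gene, fell in KO (−0.67 ± 0.11) and in WT (−0.38 ± 0.11). Pappa2, a protease that frees IGFs from binding proteins, rose in KO (1.32 ± 0.30) and in WT (1.05 ± 0.28). Igfbp3, the main carrier of IGF-1 in blood, averaged 11 CPM in KO FAC against 3.90 in KO AC (1.5 ± 0.34, adjusted p = 0.00684), and 1.44 in WT FAC against 2.36 in WT AC (adjusted p = 0.295). The difference of its effects was 2.21 ± 0.56 and did not pass (adjusted p = 0.0527). Stc1 and Stc2, whose products inhibit such proteases, went apart: Stc1 fell with FAC in KO (−1.19 ± 0.38), Stc2 rose in WT (1.22 ± 0.22), and the effect on Stc2 was smaller in KO (difference −1.09 ± 0.28, adjusted p = 0.0491). Over 18 of them, Pappa being left out for its level in 1 genotype, KO against WT gave 5 higher and 2 lower under FAC and 6 higher and 3 lower under AC, with medians of 0.02 and 0.15. The shares of all genes were 23.9% and 25% under FAC and 21.3% and 21% under AC. Stc2 was higher in KO under FAC (1.55 ± 0.18) and AC (2.64 ± 0.20), as was Stc1 (1.28 ± 0.45 and 2.30 ± 0.41), and Igfbp3 under FAC (2.92 ± 0.39; 0.72 ± 0.39 under AC, not passing), while the adaptor gene Irs1 was lower under AC (−1.38 ± 0.41), with −0.54 ± 0.39 under FAC not passing.

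Of 24 growth hormone-regulated or sex-biased liver genes 16 were tested. FAC in KO raised 8 and lowered 0 (median 0.76), where 15% of all genes rose, and in WT raised 4 and lowered 0 (median 0.14), where 8.7% rose. The effect was larger in KO for 1 gene (1.87% of all). That gene was Serpina12, encoding the adipokine vaspin, at 97.2 CPM in KO FAC against 31.5 in KO AC and 148 in WT FAC against 85.4 in WT AC (difference 0.83 ± 0.15, adjusted p = 0.0147). Hsd3b5 and Cyp2d9, male-biased in mouse liver, rose in KO (0.98 ± 0.27 and 0.97 ± 0.09) and in WT (1.01 ± 0.31 and 0.55 ± 0.10). The female-biased Cyp2b9 rose in KO (1.11 ± 0.18), against −0.28 ± 0.31 in WT, a difference that did not pass (adjusted p = 0.0508). Over 14 genes at the filter's level in both genotypes, KO against WT gave 8 higher and 1 lower under FAC (median 0.71) and 7 higher and 2 lower under AC (median 0.78), beside the shares of all genes given above. Cyp2b9 was higher in KO under FAC (3.86 ± 0.23) and AC (2.47 ± 0.23), as was the female-biased Cyp2a4 (3.57 ± 0.37 and 2.89 ± 0.38). So were the male-biased Cyp2d9 (2.56 ± 0.10 and 2.14 ± 0.10) and Hsd3b5 (1.01 ± 0.27 and 1.05 ± 0.31). Serpina12 was lower in KO under FAC (−0.61 ± 0.11) and AC (−1.44 ± 0.11), and Cyp4a12a under AC (−0.50 ± 0.11). Of the genes left out, Cyp4a12b, of a male-biased family, had 14.2 and 5.92 estimated reads in all in KO FAC and KO AC, against 345 in WT FAC and 276 in WT AC. Moxd1 had 74 reads in KO FAC and 61 in KO AC against 0 in WT FAC and WT AC. Neither gene is given a fold, since the filter sets its direction between genotypes. Members of these Cyp families share near-identical sequence, so the division of reads among them is uncertain.

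Among 12 insulin and FoxO genes, FAC raised 1 and lowered 1 in KO and lowered 1 in WT (15% higher and 14.6% lower of all genes in KO, 8.55% lower in WT). Pik3r1, a regulatory subunit of PI 3-kinase, fell in KO (−0.79 ± 0.13) and in WT (−1.22 ± 0.13), and Pck1, a gluconeogenic enzyme gene, rose in KO (1.08 ± 0.31). Over 11 of them, KO against WT gave 5 higher and 2 lower under FAC and 4 higher and 2 lower under AC. The shares of all genes were 23.9% and 25% under FAC and 21.3% and 21% under AC. Pck1, left out since it passed the filter through KO, had 351 reads in KO FAC and 179 in KO AC against 10 in WT FAC and 4 in WT AC. The kinase gene Pdk4 was higher in KO (1.01 ± 0.27 and 1.25 ± 0.28 under FAC and AC). Of 8 stress genes tied to Igfbp1 or growth hormone signalling, FAC raised 5 and lowered 1 in KO (15% and 14.6% of all genes) and raised 5 in WT (8.7%). Ddit3, a transcription factor gene of the integrated stress response, averaged 35.4 CPM in KO FAC against 22.1 in KO AC, and 71.5 in WT FAC against 20.5 in WT AC, a smaller effect in KO (difference −1.12 ± 0.13, adjusted p = 0.000558). Asns, a target of that response, rose in KO (0.85 ± 0.08) and by less in WT (0.35 ± 0.08; difference 0.50 ± 0.12, adjusted p = 0.0372). Trib3 and Atf4, of the same response, rose in KO (0.61 ± 0.08 and 0.28 ± 0.09) and in WT (0.59 ± 0.08 and 0.37 ± 0.09), and Hif1a, of the hypoxia response, fell in KO (−0.72 ± 0.18), against −0.55 ± 0.18 in WT, which did not pass (adjusted p = 0.0519). KO against WT gave 3 higher and 3 lower of these 8 under FAC (23.9% and 25% of all genes), and 3 and 4 under AC (21.3% and 21%). Fgf21, a hormone gene that blunts growth hormone signalling in mouse liver, was higher in KO under FAC (1.16 ± 0.27) and AC (1.22 ± 0.30), and so was Vegfa (0.63 ± 0.23 and 0.79 ± 0.23). Hif1a was lower in KO under FAC (−0.67 ± 0.18) and AC (−0.50 ± 0.18), and Ddit3 under FAC (−1.01 ± 0.09).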

How the data were processed

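RNA of 12 mouse hepatocyte libraries was sequenced on a BGISEQ-500, per the labels' protocols. Per the submitters' processing notes, RSEM was used with mm10 and GRCm38.p6; its version, annotation and strand setting are not given in the sources used here. Deposited by the authors were estimated counts without normalization, FPKM values (scaled by length and library total) and TPM values. Estimated counts were rounded, scaled by TMM and filtered with filterByExpr (minimum count 10). A robust quasi-likelihood model of the 4 groups was fitted in edgeR 4.0.16 (R 4.3.3), with 5 contrasts; calls of KO against WT leave out genes at the filter's level in 3 libraries of 1 genotype alone, a choice made after seeing the data. The SE is the absolute log2 fold change over the square root of F. The biological coefficient of variation was 10.8%.

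The members and gene lists were chosen with earlier results of these data known. Named were all members, up to 3 passing genes of each other list with the largest change per comparison, and the 3 genes most like Igf1 and Igfbp1. A gene that this rule names is not reported here, though it is included in the counts. Of the gene identifiers 16629 matched RefSeq, the source of positions (GRCm38.p6).

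Alternatives were DESeq2 1.42.0, median-of-ratios scaling, no filter, limma 3.58.1 on FPKM and TPM values with a pseudocount of 1 or, for FPKM, 0.1 (genes of at least 1 in 3 libraries), fits of 2 groups alone, the replicate number as a block, and each library left out. The sum of Stat5a and Stat5b reads was chosen after seeing the data.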

Additional observations from a re-analysis of the deposited data

Results flagged for a closer look

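Igfbp4 responded to FAC differently in the 2 genotypes, and the difference was itself tested: the log2 effect in KO minus that in WT was 0.766 (edgeR adjusted p = 0.0372, and up to 0.0966 over its 18 alternatives, 9 of which lost the call). The effect was 0.54 ± 0.13 in KO and −0.22 ± 0.12 in WT.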

How the results depend on the processing

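Of 682 values of the 10 genes under alternatives (without Igfbp5 between genotypes), 597 kept their direction and their side of the threshold, 37 lost the call, 19 gained it and 29 changed sign, all of these in values that had not passed. The number of genes passing for the difference was 0 to 1 when 1 library was left out. For KO against WT it was 3 under AC and 3 under FAC with each of limma on log2(FPKM + 1), log2(FPKM + 0.1) and log2(TPM + 1), where Stat5a did not pass. In the same order of these 3 settings, signs changed to −0.0179, −0.0183 and −0.0409 for Stat5b and −0.124, −0.131 and −0.152 for Igfbp1 in the difference, and to −0.0566, −0.0596 and −0.125 for Igfals and −0.088, −0.09 and −0.158 for Igfbp4 in KO against WT under FAC. Stat5b in that comparison was −0.00342 with TPM. With 1 library left out, values ran from −0.514 to 0.0438 for Igfbp5 with FAC in WT. In the difference they ran from −0.053 to 0.132 for Stat5b and from −0.519 to 0.427 for Igfbp1. Under FAC, KO against WT, they ran from −0.0283 to 0.0145 for Igfbp2 and from −0.066 to 0.179 for Igfbp4. Igfbp2 there was 0.0127 in a fit of those groups alone.

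Over all genes, those passing with FAC numbered 3633 in KO and 2117 in WT, against 2199 and 3345 in a fit of each genotype alone. Leaving out 1 library gave as few as 2371 (KO AC 3) in KO and 1250 (WT FAC 5) in WT. For the difference, 387 passed, against 658 with DESeq2 and 95 (without WT AC 3) to 643 (without KO FAC 4) with 1 library left out.

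Deviations from the group means correlated at −0.142 to 0.208 between same-numbered libraries of the 2 genotypes. Differently numbered libraries were not compared, so these values cannot decide whether the replicate numbers pair the libraries. With the number as a block, 4 of 9 genes passed in KO against WT under each treatment, Igfbp1 replacing Stat5a under AC, and Igfbp2 under FAC was 0.0124. FAC and AC libraries share no numbers. The causes were not tested. Depth limits Igfbp5 in WT, with 1 to 3 reads per library, and intervals there would cover counting error only.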
